A study of Mus musculus with 6 samples.

Results

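The genes described here are 34 mouse NF-kB response genes, taken by symbol from the count tables. The genes of the NF-kB subunits and of the Nfkb inhibitor family are not among them, apart from Bcl3, and are described last. All 34 were matched by Entrez identifier among the 27179 genes counted. They were followed in 6 RNA-seq libraries of A20, a B cell lymphoma line of BALB/C origin, with 2 replicates in each of 3 groups. Wild-type A20 cells were not transduced. The other 2 groups both carried the lentiviral TETact-v3 system, in which dCas9 recruits the catalytic domain of the demethylase TET1 and the activator p65-hsf1. They differed in the guide, which was either a non-targeting control sgRNA or an sgRNA against the Cd4 promoter, and were collected on day 7 after sgRNA transduction. The wild-type cells had gone through none of the transductions, and whether they were sorted is not stated. The comparisons with wild type thus cover the whole system together with its handling. No cells with an empty vector were analysed here. Of the 34 genes, 20 had enough reads to be tested and 14 did not.

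NF-kB is a family of dimeric transcription factors that are held in the cytoplasm by IkB proteins until a receptor on the cell surface starts a kinase cascade that removes them. Its targets include chemokines, cytokines, survival genes and many of its own inhibitors, which close a feedback loop. In B cells the pathway answers to CD40, to the BAFF receptor, to Toll-like receptors and to the antigen receptor. The p65 part of the TETact-v3 activator is the activation domain of the subunit encoded by Rela.

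NF-kB dimers bind kB motifs, so the promoters of the members were searched for one. The kB motif was taken as 3 G, a purine, any 2 bases, 2 pyrimidines and 2 C, on either strand, in the window from 250 bases before to 50 bases after each start site that RefSeq annotates in GRCm38.p6. A promoter was at hand for 27 of the 34 members, and 10 of these 27, or 37.0%, held at least 1 match. The share over all 27025 genes with a promoter in the same table was 9.55%. The members were listed for their response to NF-kB, so the difference between these shares is not a test of the list. The matches of the members that differed from wild type in at least 1 comparison below are shown as 30-base windows, 5′ to 3′ on the strand of the gene, with the matching bases in capitals. Overlapping matches were joined.
Bcl3, chr7:19822734-19822763, minus strand: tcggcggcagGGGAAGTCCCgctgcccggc
Tnip1, chr11:54962978-54963007, minus strand: tccatcatgGGGGAATTCCCCtcctgcctc
Tnfaip3, chr10:19015516-19015545, minus strand: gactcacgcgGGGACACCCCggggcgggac
Tnfaip3, chr10:19015403-19015432, minus strand: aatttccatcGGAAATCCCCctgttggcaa
Cxcl10, chr5:92349029-92349058, minus strand: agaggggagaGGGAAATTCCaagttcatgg
Cxcl10, chr5:92348974-92349003, minus strand: tcggtttacaGGGGACTTCCCtcgggttgc
Ebi3, chr17:55952569-55952598, plus strand: gccccttcctGGGGCTTCCCcgttggccat
Ebi3, chr17:55952627-55952656, plus strand: tctcccttttGGGGCCCTCCttctacctca
Ltb, chr17:35194410-35194439, plus strand: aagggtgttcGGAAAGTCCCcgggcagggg

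Of these genes Ltb was lower than wild type and the others were higher, so that a match stood in promoters of genes that moved in either direction. The member with the smallest p-value among those that rose, Zc3h12a, had no match in its window. The 250 bases before the start site are printed for Zc3h12a and for Ltb, as the genes with the smallest p-values in either direction, again with the kB match of Ltb in capitals. They held 21 and 6 CpG dinucleotides. Map3k14, which was lower below, held 19 and Tnip1, which was higher, held 3. Whether the CpG count went with the direction of a difference was not tested. A match is a description of the sequence and does not show binding, and its absence from the window leaves sites elsewhere unseen. DNA methylation was not analysed here.
Zc3h12a, chr4:125127882-125128131, minus strand: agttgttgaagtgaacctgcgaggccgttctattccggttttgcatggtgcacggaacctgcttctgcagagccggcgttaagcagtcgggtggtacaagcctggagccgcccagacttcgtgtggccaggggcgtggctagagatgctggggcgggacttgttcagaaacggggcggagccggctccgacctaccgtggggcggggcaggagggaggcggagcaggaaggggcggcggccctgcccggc
Ltb, chr17:35194257-35194506, plus strand: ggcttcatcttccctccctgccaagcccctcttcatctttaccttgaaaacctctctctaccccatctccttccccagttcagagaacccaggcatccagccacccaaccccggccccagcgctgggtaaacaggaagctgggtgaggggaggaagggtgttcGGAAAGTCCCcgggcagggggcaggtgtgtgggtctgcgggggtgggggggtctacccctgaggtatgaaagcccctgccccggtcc

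The libraries held between 23194920 and 121623410 counts, with the control sgRNA group the most deeply sequenced. Cd4 was counted 37 and 17 times in wild type, 127 and 124 times with control sgRNA, and 30959 and 40422 times with Cd4 sgRNA, as the labels state. All 10 B cell markers examined were detected in every group, with a summed level of 8112 to 8122 CPM (the count relative to the TMM-scaled library size) in wild type, 5201 to 8153 with control sgRNA and 4413 to 5014 with Cd4 sgRNA. Of the 8 T cell markers, Cd3e and Cd8b1 were at 0 throughout and the summed level was at most 1.20 CPM. Of the 8 myeloid markers, Cd14, S100a8 and S100a9 were at 0 throughout and the sum was at most 7.0 CPM. The 5 plasma cell markers summed to 1356 to 1376 CPM in wild type, 1042 to 1478 with control sgRNA and 1034 to 1071 with Cd4 sgRNA, but moved apart. Irf4 was higher with both guides, at log2 fold changes of 1.82 and 1.69 (edgeR adjusted p = 0.0036 and 0.0063), as was Sdc1, at 0.73 and 0.93 (edgeR adjusted p = 0.0049 and 0.0040). Prdm1 was higher with control sgRNA, at 2.42 (edgeR adjusted p = 0.036), with 33.0 CPM in replicate 2 and 9.29 in replicate 1, and Xbp1 was lower with both. The 7 fibroblast and epithelial markers summed to 17.1 to 18.5 CPM in wild type, 31.1 to 47.0 with control sgRNA and 14.6 to 15.4 with Cd4 sgRNA, with Col1a2 at 0 and with Pdgfrb and Epcam higher with control sgRNA, at 2.75 and 0.91 (edgeR adjusted p = 0.0087 and 0.018). The control sgRNA replicates stood further apart than the others. The median absolute log2 difference per gene was 0.275 between them, against 0.0839 in wild type and 0.0861 with Cd4 sgRNA. Mitochondrial genes took 2.65% and 2.69% of the counts in wild type and 5.96% and 6.90% with Cd4 sgRNA. With control sgRNA they took 6.63% in replicate 1 and 11.5% in replicate 2. The part of marker levels and of the mitochondrial share in the results was not tested.

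In wild-type A20, levels per length were compared as RPKM, the CPM per kilobase of counted exon. Ltb stood far above the other members at 672.1 RPKM, in percentile 99.3 of the genes tested. It encodes lymphotoxin beta, which joins lymphotoxin alpha in a membrane-bound ligand. Lta, encoding that partner, followed at 68.1 RPKM, then Junb, an AP-1 transcription factor, at 66.4 and Birc3, an inhibitor of apoptosis that is also a ubiquitin ligase, at 56.1 RPKM. The lowest of the 20 tested members were Map3k14 at 0.848 and Map3k8 at 0.0272 RPKM. Among the members with low to middling levels, Zc3h12a rose from percentile 31.8 in wild type to percentile 65.9 with control sgRNA and 64.7 with Cd4 sgRNA, and Bcl3 from percentile 37.1 to 66.8 and 55.5. Cd83, an activation marker of B cells and dendritic cells, went from percentile 65.9 to 50.6 and 46.7.

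**Figure D1:**
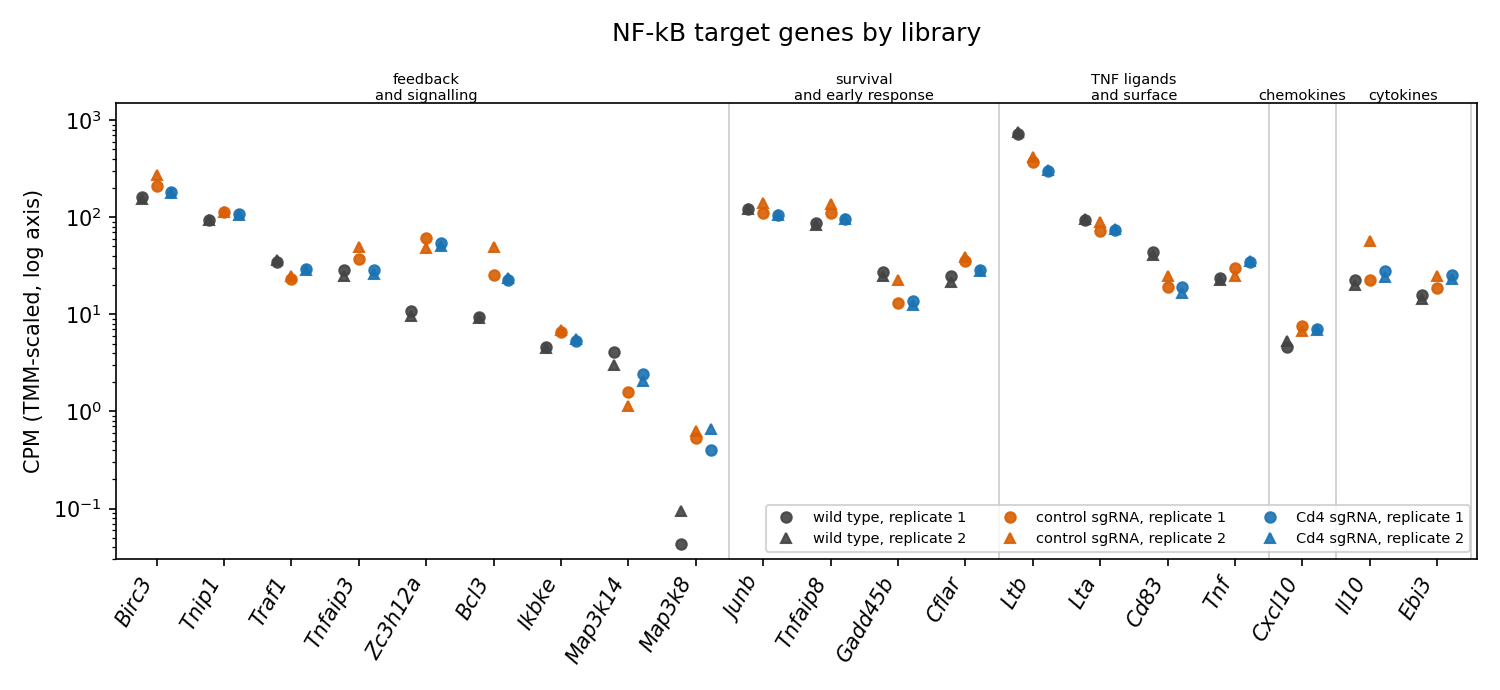
Level of the 20 tested NF-kB target genes in the 6 libraries, in CPM on a log axis, with circles for replicate 1 and triangles for replicate 2 of each group and genes ordered by role. Zc3h12a, Bcl3 and Map3k8 lie higher in all 4 TETact-v3 libraries than in both wild-type libraries, and Ltb and Cd83 lie lower.

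The question of the first comparison was which of these genes differed once A20 cells carried TETact-v3 with a guide that targets nothing. With edgeR's quasi-likelihood test in a single fit of all 6 libraries, adjusted over the 12430 genes tested, 10 of the 20 tested members were higher in control sgRNA cells, against a background of 14.5% of all genes tested. Another 4 were lower, against 13.5%, and 6 did not pass. At an unadjusted p under 0.05 there were 15, against 42.6% of all genes. The CPM of 12 members lay higher in both control sgRNA libraries than in both wild-type ones, against 33.3% of all genes, and that of 6 lay lower, against 33.8%. The median log2 fold change of the 20 members was 0.52, and that of all genes tested was -0.00095. Between Cd4 sgRNA cells and the same wild-type libraries, 5 members were higher, against 9.84% of all genes tested, and 3 were lower, against 10.7%. The median there was 0.19, and 0.0043 over all genes. At an unadjusted p under 0.05 there were 14, against 37.5%, and without overlap of the groups 12 lay higher and 7 lower, against 40.4% and 39.3% of all genes. The wild-type libraries are shared, so these comparisons are not independent of each other. The members were chosen with earlier results of these data known, so the shares and medians describe the list and do not test it. The filter on low counts kept genes by their highest libraries, and Map3k8, at the floor in wild type, passed only through the TETact-v3 groups and so had to differ. Without it 9 of 19 members were higher with control sgRNA and 4 with Cd4 sgRNA. A group of 2 against a group of 2 cannot give an exact permutation p below 0.333, so the calls rest on the model, whose spread is shared among the 3 groups. A group left with 1 library is assumed to vary like the others, and the share of all genes called moved with the members when a library was left out. Without wild-type replicate 1 the first comparison had 1 higher and 0 lower members, against 0.494% and 0.423% of all genes. Without wild-type replicate 2 it had 1 and 1, against 1.76% and 1.34%. Without either Cd4 sgRNA library it had 4 and 4, against 6.37% to 6.40% higher and 5.64% to 5.67% lower. It had 14 higher and 5 lower without control sgRNA replicate 1, against 33.0% and 31.2%, and 13 and 7 without control sgRNA replicate 2, against 30.3% and 29.5%. For Cd4 sgRNA against wild type, the counts were 1 and 1 without any single wild-type or Cd4 sgRNA library, against at most 0.943% and 0.640%. They were 12 and 8 without control sgRNA replicate 1, against 32.4% and 26.9%, and 11 and 8 without control sgRNA replicate 2, against 30.7% and 29.0%. Zc3h12a was the member still higher without a wild-type library. Ltb was the member still lower, except with control sgRNA when wild-type replicate 1 was left out. Each other call in these comparisons was lost without either of the wild-type libraries. With control sgRNA the calls still made without a Cd4 sgRNA library were those of Zc3h12a, Bcl3, Map3k8 and Cflar, higher, and of Ltb, Cd83, Traf1 and Map3k14, lower.

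**Figure D2:**
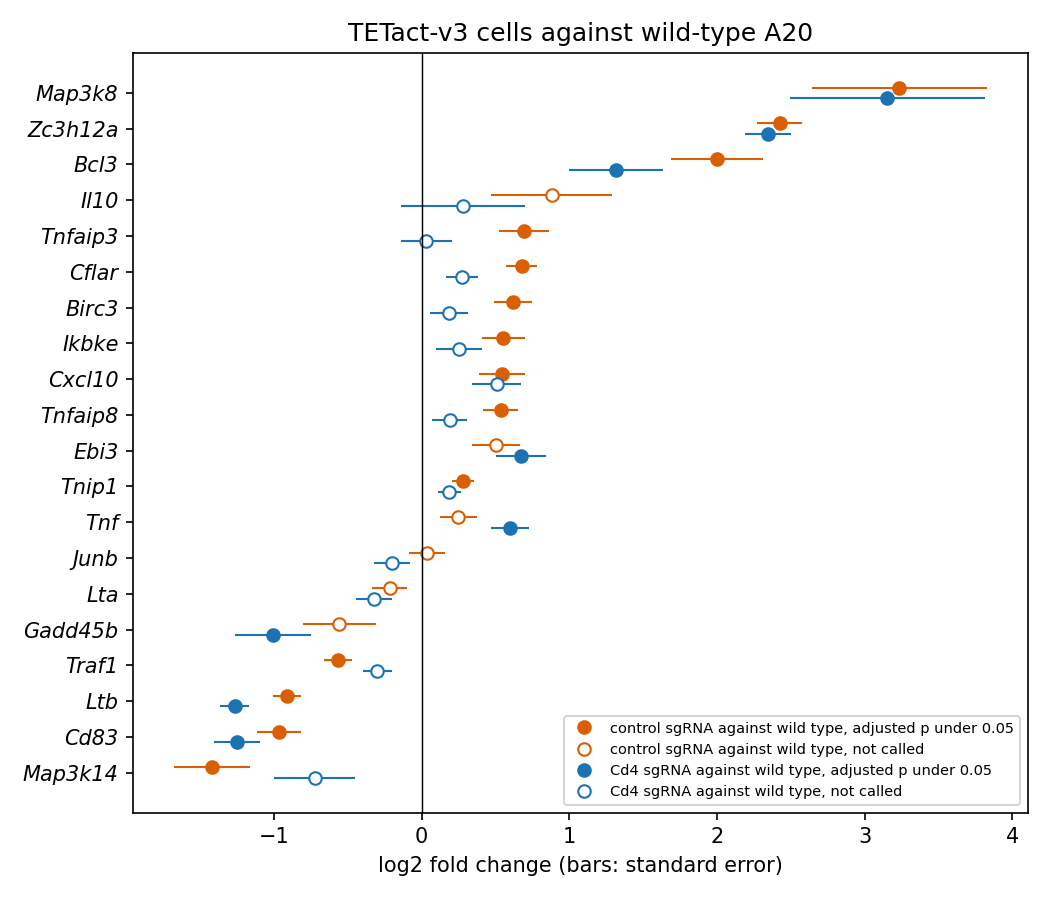
Log2 fold change against wild-type A20 of the 20 tested members, in control sgRNA cells (orange) and Cd4 sgRNA cells (blue), with bars for the standard error and filled points for an adjusted p under 0.05. Zc3h12a, Bcl3 and Map3k8 lie at the top and Ltb, Cd83 and Map3k14 at the bottom, and the wild-type level behind the values of Map3k8 is under the detection floor.

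Among feedback and signalling genes, Zc3h12a rose with the smallest p-value in both comparisons with wild type. It encodes Regnase-1, an endoribonuclease that degrades messenger RNAs of inflammatory genes, and lies at chr4:125118414-125127881. Its level was 10.8 and 9.53 CPM in wild type, 61.7 and 48.5 CPM with control sgRNA, and 53.8 and 50.6 CPM with Cd4 sgRNA. The lowest TETact-v3 library was thus far above both wild-type libraries. The log2 fold change was 2.42 ± 0.15 (SE, edgeR adjusted p = 0.00083) with control sgRNA and 2.35 ± 0.16 (SE, edgeR adjusted p = 0.0012) with Cd4 sgRNA, or 5.37-fold and 5.09-fold. Both calls held in all 17 alternatives, each library left out in turn included.

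Bcl3, at chr7:19808462-19822824, encodes an unusual IkB protein that acts in the nucleus with p50 and p52 dimers. It was at 9.40 and 9.20 CPM in wild type, 25.7 and 49.0 CPM with control sgRNA, and 22.7 and 23.6 CPM with Cd4 sgRNA. The groups did not overlap with wild type, and control sgRNA replicate 2 stood well above the other 3 TETact-v3 libraries. On the log2 scale the difference was 2.00 ± 0.31 (SE, edgeR adjusted p = 0.0083) with control sgRNA and 1.46 without control sgRNA replicate 2, and it did not pass without wild-type replicate 1 (edgeR adjusted p = 0.097). With Cd4 sgRNA it was 1.31 ± 0.32 (SE, edgeR adjusted p = 0.036), and voomLmFit, the method of the study, gave an adjusted p of 0.082 there. Leaving out wild-type replicate 1 gave an adjusted p of 0.21 (edgeR).

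Map3k8, at chr18:4331325-4352953, encodes TPL2, a kinase upstream of ERK that is bound by the p105 precursor. It was counted 2 and 2 times in wild type, 59 and 51 times with control sgRNA, and 13 and 29 times with Cd4 sgRNA. In CPM these were 0.0430 and 0.0934, then 0.531 and 0.630, then 0.397 and 0.655, with wild type under the detection floor of 3 counts. The floor lay between 0.0270 and 0.140 CPM in the 6 libraries, so the wild-type level is not resolved and the fitted fold changes are not given as sizes. It is among the members called higher in both comparisons with wild type, by a test that its passing of the filter had decided in part, and neither call held without wild-type replicate 1.

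Smaller rises were found in other genes of this role in control sgRNA cells. Tnfaip3 encodes a ubiquitin-editing enzyme that restrains NF-kB and is itself called A20, a name it shares with the cell line by coincidence. It was at 28.6 and 24.9 CPM in wild type, 37.0 and 49.9 CPM with control sgRNA, and 28.8 and 26.1 CPM with Cd4 sgRNA. Its log2 fold change was 0.69 ± 0.17 (SE, edgeR adjusted p = 0.029) with control sgRNA and 0.031 (edgeR adjusted p = 0.91) with Cd4 sgRNA. Here the control sgRNA libraries stood above all 4 others, while Cd4 sgRNA and wild type overlapped. Tnip1, whose product binds that of Tnfaip3, was at 93.0 and 93.2 CPM in wild type, 112.9 and 113.0 CPM with control sgRNA, and 106.7 and 105.4 CPM with Cd4 sgRNA. Its replicates lay close together in each group, and its log2 fold change with control sgRNA was 0.28 ± 0.076 (SE, edgeR adjusted p = 0.041).

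Birc3 was at 159.6 and 155.8 CPM in wild type, 211.7 and 272.6 CPM with control sgRNA, and 182.3 and 176.6 CPM with Cd4 sgRNA. Its log2 fold change was 0.62 ± 0.13 (SE, edgeR adjusted p = 0.019) with control sgRNA and 0.19 (edgeR adjusted p = 0.34) with Cd4 sgRNA. Ikbke, encoding a kinase related to the IkB kinases, was at 4.58 and 4.48 CPM in wild type, 6.53 and 6.81 CPM with control sgRNA, and 5.28 and 5.54 CPM with Cd4 sgRNA. In both genes the order of the groups was the same, with control sgRNA highest and no overlap between groups. The log2 fold change of Ikbke with control sgRNA was 0.55 ± 0.14 (SE, edgeR adjusted p = 0.035). The calls of Tnfaip3, Tnip1, Birc3 and Ikbke were lost without any single wild-type or Cd4 sgRNA library. Adding the replicate number to the fit also ended those of Tnip1 and Ikbke, with adjusted p-values of 0.075 and 0.059 (edgeR).

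Another 2 signalling genes were lower in control sgRNA cells. Map3k14, at chr11:103219764-103267401, encodes NIK, the kinase that starts the non-canonical pathway. It was at 4.09 and 2.99 CPM in wild type, 1.57 and 1.12 CPM with control sgRNA, and 2.41 and 2.06 CPM with Cd4 sgRNA. This gave a log2 difference that was -1.42 ± 0.26 (SE, edgeR adjusted p = 0.012) with control sgRNA and -0.72 (edgeR adjusted p = 0.11) with Cd4 sgRNA. Traf1, encoding an adaptor of TNF receptors, was at 34.6 and 36.1 CPM in wild type, 23.0 and 24.8 CPM with control sgRNA, and 29.0 and 28.4 CPM with Cd4 sgRNA. Its log2 fold change was -0.56 ± 0.094 (SE, edgeR adjusted p = 0.0094) with control sgRNA and -0.30 (edgeR adjusted p = 0.072) with Cd4 sgRNA. In both genes the Cd4 sgRNA libraries lay between the other 2 groups without overlap. Without wild-type replicate 1, the adjusted p with control sgRNA was 0.18 for Map3k14 and 0.11 for Traf1 (edgeR).

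In the survival and early response group, Cflar and Tnfaip8 were higher with control sgRNA. Cflar encodes c-FLIP, which blocks caspase-8 at death receptors. It was at 24.6 and 21.8 CPM in wild type, 35.5 and 38.9 CPM with control sgRNA, and 28.3 and 28.1 CPM with Cd4 sgRNA, and its log2 fold change with control sgRNA was 0.68 ± 0.11 (SE, edgeR adjusted p = 0.0083). Tnfaip8 was at 86.2 and 83.1 CPM in wild type, 109.7 and 136.1 CPM with control sgRNA, and 96.9 and 96.3 CPM with Cd4 sgRNA, with a log2 fold change of 0.54 ± 0.12 (SE, edgeR adjusted p = 0.022) with control sgRNA. For both, the Cd4 sgRNA libraries lay between the other groups, and the test against wild type was not passed there, with adjusted p-values of 0.12 and 0.29 (edgeR). Without wild-type replicate 2 the calls with control sgRNA were lost, at adjusted p-values of 0.085 and 0.14 (edgeR).

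Gadd45b, a stress-induced gene whose product acts on p38 and JNK signalling, went the other way. It was at 27.0 and 25.1 CPM in wild type, 13.2 and 22.4 CPM with control sgRNA, and 13.6 and 12.4 CPM with Cd4 sgRNA. The log2 fold change with Cd4 sgRNA was -1.004 ± 0.26 (SE, edgeR adjusted p = 0.042, and 0.068 with voomLmFit). With control sgRNA it was -0.56 (edgeR adjusted p = 0.14), where replicate 1 lay with the Cd4 sgRNA libraries and replicate 2 nearer to wild type. Without control sgRNA replicate 2 it was -0.98. The Cd4 sgRNA call was lost without any single wild-type or Cd4 sgRNA library, at adjusted p-values of up to 0.24 (edgeR). Junb was at 122.1 and 122.4 CPM in wild type, 110.7 and 139.7 CPM with control sgRNA and 106.3 and 106.5 CPM with Cd4 sgRNA, and passed neither test.

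Tnf, Lta and Ltb are neighbours on chromosome 17, at chr17:35199367-35202007, chr17:35203165-35205578 and chr17:35194507-35196305, and are described together. Ltb was at 723.8 and 748.1 CPM in wild type, 366.6 and 415.8 CPM with control sgRNA, and 302.4 and 308.7 CPM with Cd4 sgRNA. All 4 TETact-v3 libraries were far below both wild-type libraries. The log2 fold change was -0.91 ± 0.095 (SE, edgeR adjusted p = 0.0026) with control sgRNA and -1.27 ± 0.096 (SE, edgeR adjusted p = 0.0016) with Cd4 sgRNA, or 1.88-fold and 2.41-fold lower. The Cd4 sgRNA call held in all 17 alternatives and the control sgRNA call in 16, with an adjusted p of 0.059 (edgeR) without wild-type replicate 1.

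Tnf, encoding the cytokine TNF, was at 23.6 and 22.3 CPM in wild type, 30.01 and 24.6 CPM with control sgRNA, and 34.3 and 35.3 CPM with Cd4 sgRNA. The Cd4 sgRNA libraries were the highest, with a log2 fold change of 0.60 ± 0.13 (SE, edgeR adjusted p = 0.025), while that with control sgRNA was 0.25 (edgeR adjusted p = 0.18). Without Cd4 sgRNA replicate 2 the adjusted p of the first was 0.19 (edgeR). Lta was at 92.9 and 95.4 CPM in wild type, 72.2 and 89.8 CPM with control sgRNA, and 74.2 and 76.4 CPM with Cd4 sgRNA. It lay below wild type in all 4 TETact-v3 libraries without passing the test, with adjusted p-values of 0.21 and 0.11 (edgeR). Whether the 3 neighbours differ from each other in their fold changes was not tested.

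Cd83, at chr13:43785112-43803133, was also lower in both comparisons. It was at 44.1 and 41.0 CPM in wild type, 19.0 and 24.7 CPM with control sgRNA, and 19.1 and 16.7 CPM with Cd4 sgRNA. No TETact-v3 library reached the lower wild-type value. On the log2 scale the difference was -0.97 ± 0.15 (SE, edgeR adjusted p = 0.0084) with control sgRNA and -1.25 ± 0.16 (SE, edgeR adjusted p = 0.0064) with Cd4 sgRNA. Without wild-type replicate 1 the adjusted p was 0.11 and 0.092 (edgeR). In bulk RNA, fewer cells that express a gene and less RNA of it per cell cannot be told apart, which applies to every difference given here.

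Among the secreted factors, Cxcl10 was the only chemokine member with enough reads to test. It encodes a ligand of CXCR3 and was at 4.63 and 5.32 CPM in wild type, 7.56 and 6.70 CPM with control sgRNA, and 6.99 and 6.96 CPM with Cd4 sgRNA. This gave a log2 difference that was 0.54 ± 0.16 (SE, edgeR adjusted p = 0.046) with control sgRNA and 0.51 ± 0.17 (SE, edgeR adjusted p = 0.076) with Cd4 sgRNA, and the first passed in 9 of 17 alternatives. Without wild-type replicate 1 its adjusted p was 0.33 (edgeR). Its annotated span overlaps that of Art3, and whether reads were counted by strand is not given in the sources used here.

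Ebi3, which encodes a subunit shared by IL-27 and IL-35, was at 15.9 and 14.3 CPM in wild type, 18.5 and 24.6 CPM with control sgRNA, and 25.2 and 23.2 CPM with Cd4 sgRNA. Its log2 fold change was 0.67 ± 0.17 (SE, edgeR adjusted p = 0.038, and 0.065 with voomLmFit) with Cd4 sgRNA and 0.50 (edgeR adjusted p = 0.066) with control sgRNA. All TETact-v3 libraries lay above wild type, but the span of the gene overlaps those of Zfp119b and Gm16712. Without Cd4 sgRNA replicate 1 the adjusted p of its call was 0.20 (edgeR). Il10, the anti-inflammatory cytokine, was at 22.4 and 20.3 CPM in wild type, 22.3 and 56.7 CPM with control sgRNA, and 27.8 and 24.3 CPM with Cd4 sgRNA. The high value is that of control sgRNA replicate 2 alone, and replicate 1 lay within the wild-type range. Its log2 fold change with control sgRNA was 0.88 (edgeR adjusted p = 0.16) and 0.055 without that library.

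The other 14 members were too low to test, and the filter's minimum was 0.219 CPM. Ccl3, Ccl4 and Ptgs2 had 0 counts in all 6 libraries, which allows up to 3 counts in each. Il6 and Csf2 had 2 counts in Cd4 sgRNA replicate 1 and 0 elsewhere, and Tnfaip2 had at most 1 count in any library. Ccl5 was counted 4 and 2 times in wild type and at most 1 time in a TETact-v3 library. Such limits cover counting error only.

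A few untested members had reads mainly in the deeply sequenced control sgRNA libraries. Ier3, an immediate early gene, was counted 28 and 15 times there, 2 and 0 times in wild type, and 3 and 4 times with Cd4 sgRNA. Il15 was counted 13 and 20 times with control sgRNA, 4 and 4 times with Cd4 sgRNA and not at all in wild type, and Ccl22 was counted 13 and 16 times, 0 and 2 times, and 0 times in the same order. On the CPM scale Ccl22 was at 0.117 and 0.198 with control sgRNA, and its 0 counts in wild type allow up to 0.0646 and 0.140 CPM, so that the ranges overlap. Il15 was at 0.117 and 0.247 CPM with control sgRNA and at 0.122 and 0.0904 CPM with Cd4 sgRNA. These overlap each other and the same limits in wild type. Il12b was counted 5 times in each control sgRNA library and 0 times in the others. Lcn2 had at most 8 counts and Tnip3 at most 17. Il1b was counted 16 and 4 times in wild type, 2 and 17 times with control sgRNA, and 3 and 0 times with Cd4 sgRNA, so that the replicates of a group differed widely.

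Set side by side, the libraries showed a wide spread of members around the wild-type mean. The median log2 ratio of the 20 tested members to that mean was 0.33 and 0.51 in the control sgRNA replicates and 0.20 and 0.18 in the Cd4 sgRNA replicates. The lowest member lay between -1.65 and -1.18 in these 4 libraries and the highest between 2.31 and 2.60, without Map3k8, which is unresolved in wild type. The highest was Zc3h12a in 3 of these libraries and Bcl3 in control sgRNA replicate 2. Control sgRNA replicate 2 exceeded replicate 1 in 16 of the 20 members, by a median of 0.28 on the log2 scale. The gap was 1.35 for Il10, 0.93 for Bcl3 and 0.76 for Gadd45b.

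**Figure D3:**
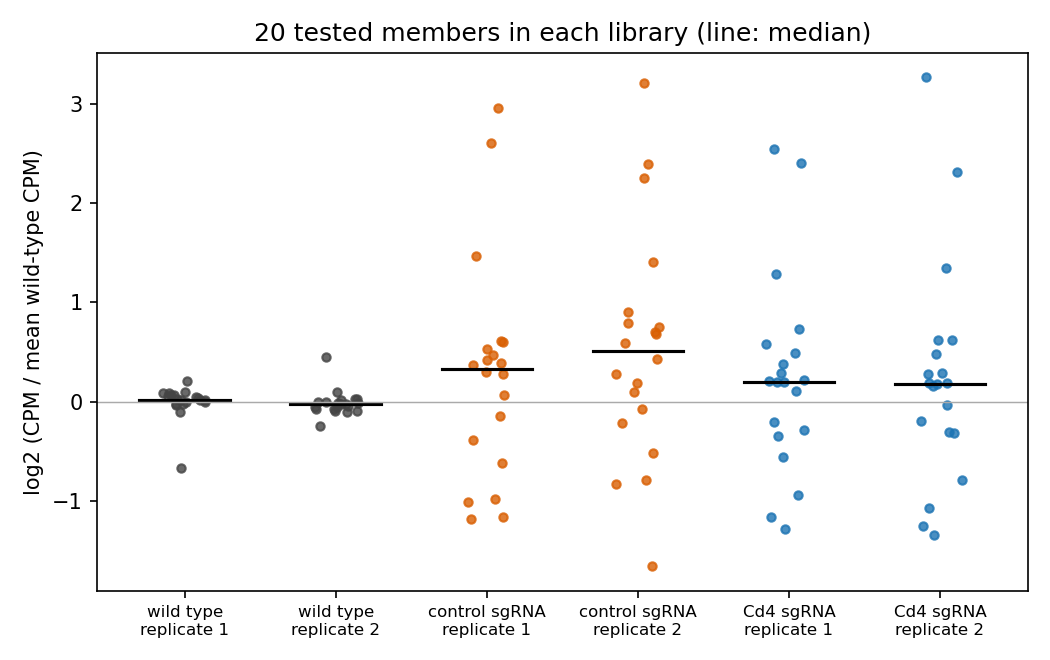
Log2 ratio of each of the 20 tested members to its mean wild-type CPM, by library, with a line at the median of the members. The control sgRNA replicates have medians of 0.33 and 0.51 and the Cd4 sgRNA replicates of 0.20 and 0.18.

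The last comparison asked whether the guide made a difference within TETact-v3 cells. Between Cd4 sgRNA and control sgRNA cells, 0 of the 20 tested members were higher and 0 were lower in edgeR's quasi-likelihood test, against 0.0241% and 0.0483% of all genes tested. At an unadjusted p-value under 0.05 there were 8 of the 20, against 24.9% of all genes. Without overlap of the groups 3 lay higher and 9 lower, against 29.5% and 30.2% of all genes. voomLmFit called 0 members, and DESeq2 called 4 lower, namely Tnfaip3, Ltb, Cflar and Birc3, with adjusted p-values of 0.0086, 0.023, 0.034 and 0.038. DESeq2 called 4.25% of all genes higher and 7.09% lower in this comparison. The median log2 fold change was -0.26, with 16 members below 0, and that of all genes tested was -0.0081. The largest differences were those of Map3k14, at 0.70 ± 0.27 (SE, edgeR adjusted p = 0.19), and Bcl3, at -0.69 ± 0.29 (SE, edgeR adjusted p = 0.21). Zc3h12a differed by -0.079 ± 0.14 (SE, edgeR adjusted p = 0.72).

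These counts rested on the control sgRNA libraries. Without control sgRNA replicate 1, 3 members were higher and 13 lower at an adjusted p under 0.05 in edgeR's test, against 30.4% and 30.9% of all genes in that fit. Without replicate 2, 3 were higher and 6 lower, against 12.1% and 12.8%. A lone control library is then assumed to vary like the other groups, whose replicates lie closer together. The log2 fold change of Bcl3 was -1.08 without control sgRNA replicate 1 and -0.15 without replicate 2, and that of Il10 was -1.12 and 0.22. Tnip1 lay at -0.087 and -0.091.

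**Figure D4:**
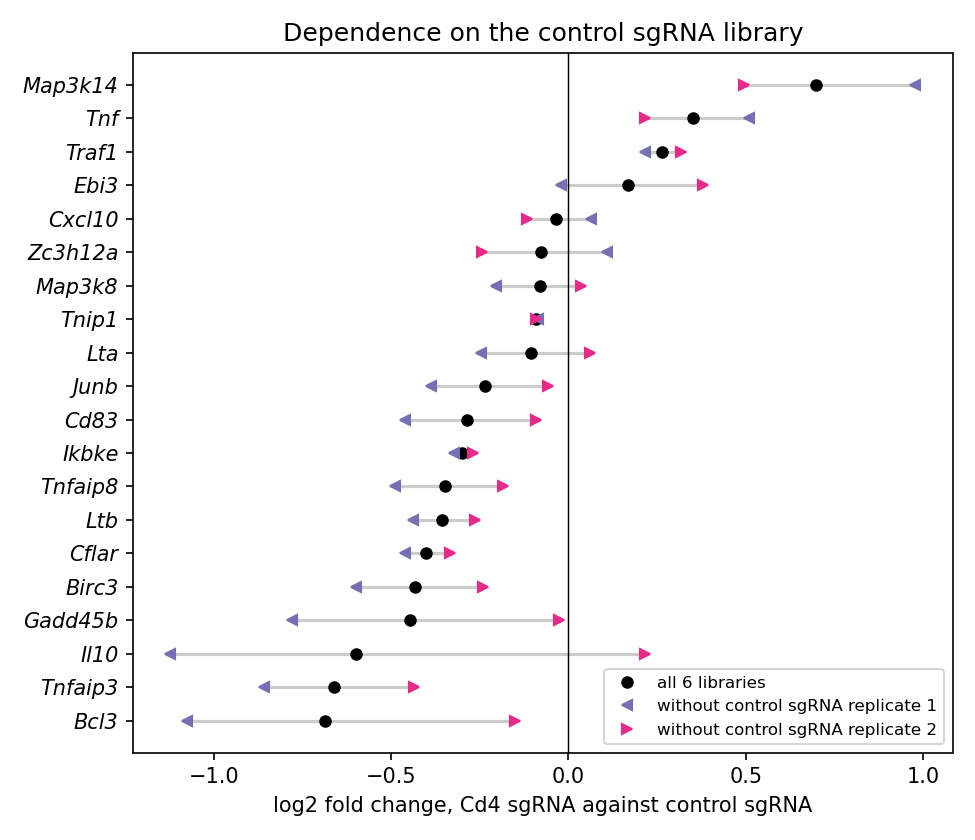
Difference between Cd4 sgRNA and control sgRNA cells for the 20 tested members, as log2 fold change, with all 6 libraries (circles) and without either control sgRNA replicate (triangles), joined by grey lines. Il10 and Bcl3 have the longest lines, while those of Tnip1 and Ikbke are short.

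The members were set beside 52 other genes of the pathway, also chosen with earlier results known, of which 47 were tested. In control sgRNA cells 6 of these were higher and 12 lower than wild type, and with Cd4 sgRNA 4 were higher and 6 lower (edgeR). These are 12.8% and 25.5% of the 47, against 14.5% and 13.5% of all genes, and 8.51% and 12.8%, against 9.84% and 10.7%. The IkB genes had 3 of 5 higher with control sgRNA and 0 lower, against the same 14.5% and 13.5%. Nfkbiz, which encodes the nuclear IkB protein IkB-zeta, was at 2.15 CPM on average in wild type, 207.3 with control sgRNA and 126.1 with Cd4 sgRNA. Nfkbid went from 27.0 to 97.1 and 96.1 CPM, and Nfkbia, the classical IkB-alpha gene, was at 94.2, 225.9 and 135.5 CPM and did not pass with Cd4 sgRNA (edgeR adjusted p = 0.071). Their log2 fold changes with control sgRNA were 6.59, 1.84 and 1.26 (adjusted p = 2.3e-05, 0.0013 and 0.0050, edgeR).

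The rest of the list holds the receptors, adaptors, kinases and subunits. None of the 10 tested receptor genes was higher in edgeR's test, with 5 of them at an unadjusted p under 0.05 against 42.6% of all genes, and 4 were lower with control sgRNA, against 13.5%, among them Tlr9 with a log2 fold change of -1.21 and Tlr4 with -0.64 (adjusted p = 0.0097 and 0.017, edgeR). With Cd4 sgRNA 2 receptor genes were lower, against 10.7% of all genes. Tlr9 and Tlr4 did not pass there, at -0.13 and -0.39 (adjusted p = 0.66 and 0.084, edgeR). Of the 23 adaptors and ubiquitin ligases tested, 3 were higher and 6 lower with control sgRNA, against 14.5% and 13.5%. Bcl10 and Malt1, whose products signal together below the antigen receptor, had log2 fold changes of 0.56 and 0.71, and Traf5 one of -1.11 (adjusted p = 0.0087, 0.0088 and 0.0022, edgeR). Irak1, a kinase below Toll-like receptors, was lower with both guides, at -0.50 and -0.45 (adjusted p = 0.015 and 0.026, edgeR), and Nfkb2, the p100 subunit gene, was lower with Cd4 sgRNA, at -0.47 (edgeR adjusted p = 0.026). Of the 5 subunit genes 1 was lower with control sgRNA, which was Nfkb1 at -0.29 (edgeR adjusted p = 0.049), and Rela differed by -0.083 (edgeR adjusted p = 0.47), both named after their values were seen. Between Cd4 sgRNA and control sgRNA cells, 0 of the 47 pathway genes passed in edgeR's test, with 18 at an unadjusted p under 0.05. All genes had 0.0724% and 24.9% there.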

How the data were processed

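RNA-seq of 6 A20 libraries was analysed. Paired-end reads were aligned by the authors with Rsubread against mm10, and featureCounts with its inbuilt RefSeq annotation gave the reads of each gene. The deposited counts are raw and not normalized, and the strand setting is not stated. A table of the whole series was not used. Symbols came from RefSeq genes of GRCm38.p6 for 25275 of 27179 identifiers. Rows lacking a symbol or sharing one, and genes that were mitochondrial, ribosomal RNA or of type other, were removed, as in the study, and filterByExpr left 12430 genes, holding 86.0% to 95.0% of each library's counts. CPM used TMM factors. The test was edgeR 4.0.16 (glmQLFit and glmQLFTest, robust, two-sided) with a term per group over all 6 libraries and Benjamini-Hochberg adjustment at 0.05. The SE is the absolute log2 fold change over the root of the F statistic. The tests were tested on simulated counts. Alternatives used voomLmFit of limma 3.58.1, which the study used, and DESeq2 1.42.0, in R 4.3.3, and are given below. Every tested member was named, with library values for each. The members and lists were chosen with earlier results of these data known. Replicates were independently repeated samples per the methods.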

Additional observations from a re-analysis of the deposited data

How the results depend on the processing

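In control sgRNA against wild type, 10 members were higher and 4 lower, against 14.5% and 13.5% of all genes. Fitting only the 2 groups compared gave 4 higher, against 6.62% of all genes in that fit. A minimum absolute log2 fold change of 1 left 3 higher and 1 lower, against 5.39% and 4.06%. Leaving out 1 library at a time gave 1 to 14 higher and 0 to 7 lower. In Cd4 sgRNA against wild type, 5 were higher and 3 lower, against 9.84% and 10.7% of all genes. There voomLmFit gave 3 higher, against 8.2%, and a minimum absolute log2 fold change of 1 gave 3, against 3.23%. A fit of only the 2 groups gave 11 and 7, against 31.2% and 30.6% of all genes in that fit. Leaving out 1 library gave 1 to 12 higher and 1 to 8 lower. In Cd4 sgRNA against control sgRNA, with 0 in each direction, DESeq2 gave 4 lower, and leaving out 1 library gave 0 to 3 higher and 0 to 13 lower.

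Leaving out 1 library turned the sign of some log2 fold changes, none of them called with all 6 libraries. That of Junb in control sgRNA against wild type was -0.14 without control sgRNA replicate 2 and at most 0.22 without another library. In Cd4 sgRNA against wild type Tnfaip3 ran from -0.036 (without Cd4 sgRNA replicate 1) to 0.17, with -0.034 without wild-type replicate 2. Between the guides Map3k8 ran from -0.53 to 0.19 (without Cd4 sgRNA replicate 1), with 0.035 without control sgRNA replicate 2. Without that library Lta reached 0.060, from -0.25, and Il10 0.22, from -1.12. Without control sgRNA replicate 1 Zc3h12a reached 0.11, from -0.24, Cxcl10 0.063, from -0.12, and Ebi3 -0.020, against up to 0.38. The causes were not tested.

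Deviations of same-numbered replicates correlated across genes at -0.032 for wild type and control sgRNA and 0.020 for wild type and Cd4 sgRNA. For control sgRNA and Cd4 sgRNA the correlation was -0.14, so that their same-numbered libraries tended weakly in opposite directions. With the replicate number as a block, 7 members were higher and 4 lower with control sgRNA, against 12.5% and 11.4% of all genes. With Cd4 sgRNA there were 4 and 2, against 7.8% and 8.59%, and between the guides 0 and 0, against 0.0161% and 0.0402%. A crossed pairing of the Cd4 sgRNA numbers, chosen after seeing the data, gave 8 and 4 with control sgRNA, against 14.9% and 13.6%. With Cd4 sgRNA it gave 5 and 3, against 10.1% and 11.4%, and between the guides 0 and 0, against 0.0241% and 0.0724%. RLE factors, library size only, the legacy quasi-likelihood method and no annotation filter left all 6 counts as they were. Without the filter on low counts 8 of 31 members were higher with control sgRNA, against 9.83% of all genes. Thinning the control sgRNA counts to the shallowest library left 10 higher and 4 lower, against 16.9% and 13.4%. The stricter filter removed Map3k8.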
